A study of Mus musculus with 14 samples.

Results

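The epidermal growth factor (EGF) family genes Egf, Tgfa, Areg, Ereg, Hbegf, Btc, Egfr, Erbb2, Erbb3 and Lrig1 were followed across sorted mouse colon cells. Members were taken by symbol, and all 10 were found once each among the 55487 genes of the count table. Cells of 2 kinds were sorted by flow cytometry: lamina propria macrophages, gated on MHC class II, CD64, CD11b and CD45, and epithelial cells, gated on EpCAM and high CD44. Mice labelled Tsc2fl/fl Lyz2cre/+ (cre) express Cre recombinase from the myeloid lysozyme gene Lyz2, and mice labelled Tsc2fl/fl Lyz2+/+ (wt) lack it. Both genotypes are homozygous for the floxed allele of Tsc2, whose product tuberin holds the kinase complex mTORC1 in check together with TSC1. No group carried the recombinase without the floxed gene, so the deletion and the recombinase allele cannot be told apart. The age of the mice is not given in the sources used here.

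Macrophages gave 3 cre libraries (numbered 8, 9 and 10 in the titles) and 3 wt libraries (2, 4 and 6). Epithelial cells gave 4 cre libraries (5, 8, 9 and 10) and 4 wt libraries (2, 4, 6 and 7). The sources used here do not say whether a number shared by both cell types marks 1 mouse. The cre macrophages came from 3 males, and the wt macrophages from 1 male and 2 females. For epithelial cells there were 3 male and 1 female cre libraries, against 2 male and 2 female wt libraries. Each of the 14 libraries held 7269103 to 9364551 counts, so that a count of 0 allows at most 3 counts, or 0.260 to 0.512 CPM (counts scaled to a common library total). The titles carry 4 numbers per genotype whereas the series text speaks of 3 wt mice, and p-values measure the spread between libraries whichever is right. With 3 wt mice, the 4 wt epithelial libraries would not all come from separate animals. The p-values and SDs that use these libraries would then treat libraries of 1 animal as independent. Tsc2 itself did not pass the test in macrophages (log2 change -0.14, edgeR adjusted p = 0.860; 0.31 with sex in the model) or in epithelial cells (0.14, adjusted p = 0.414), and its count includes exons outside a floxed segment. Lyz2, the lysozyme gene that holds the recombinase, had 7020 ± 220.1 CPM in cre and 8235 ± 821 CPM in wt macrophages (SD, n = 3 each), and its log2 change of -0.22 did not pass either (edgeR adjusted p = 0.634).

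The labelled populations carried their markers. Summed over 13 macrophage genes, cre macrophages held 14059 to 17993 CPM and wt macrophages 9666 to 12376 CPM, against 37.9 to 76.1 CPM in cre and 57.1 to 119 CPM in wt epithelial libraries. Summed over 13 pan-epithelial genes, the macrophage libraries held 145 to 280 CPM (cre) and 156 to 539 CPM (wt), against 13694 to 16615 CPM in cre and 10437 to 12433 CPM in wt epithelial libraries, 2 ranges that did not meet. The macrophage libraries also held RNA of other cells. Summed over 15 fibroblast and muscle genes, led by Col3a1, they had 1524 to 3641 CPM in cre and 4402 to 7958 CPM in wt, with none of the 15 genes at 0. In epithelial libraries this sum was 30.02 to 46.8 CPM. Summed over 7 dendritic cell genes, cre macrophages had 590 to 731 CPM and wt macrophages 914 to 1897 CPM. Most of this was Ccr7, with means of 589 CPM in cre and 1129 CPM in wt. The next genes were Flt3 in cre (24.5 CPM) and Dpp4 in wt (43.1 CPM). Sums over 6 B and plasma cell genes were 1016 to 1700 CPM in cre and 566 to 2666 CPM in wt macrophages. Jchain made up most of them, with means of 1382 CPM in cre and 1741 CPM in wt. The next genes were Cd79b in cre (17.8 CPM) and Cd79a in wt (15.1 CPM). Sums over 4 endothelial genes were 65.2 to 747 CPM in cre and 190 to 352 CPM in wt macrophages. The part of these cells in the results below was not tested, unless a value is given.

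EGF family ligands are made as membrane-anchored precursors that proteases such as ADAM17 and ADAM10 release. They bind the receptor tyrosine kinase EGFR, which pairs with itself or with ERBB2, a partner that binds no ligand of its own, or with ERBB3, a neuregulin receptor with a weak kinase. The receptors signal through the RAS-ERK and PI3K pathways, and LRIG1, a transmembrane protein that marks crypt stem cells, dampens them. In the gut epithelium this system is known for driving crypt cell growth and repair.

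Ereg, Areg and Btc lie side by side on mouse chromosome 5 (GRCm38). Ereg (ENSMUSG00000029377) spans 91074622 to 91093646 and Areg (ENSMUSG00000029378) 91139599 to 91148432, both on the plus strand and 45952 bases apart. Btc (ENSMUSG00000082361) follows 208828 bases further, at 91357261 to 91402994 on the minus strand. As described below, these neighbours differed in their cell of expression: Ereg was higher in macrophages, Btc was higher in epithelial cells, and Areg passed the test in neither direction. Of the 10 members, 7 matched the RefSeq promoter table. The sequence before the start is shown for both cluster genes that matched, Areg and Btc, and for Erbb2 and Lrig1, the receptor and the inhibitor with the lowest macrophage level relative to the epithelial one. Each run below holds the 250 bases before the RefSeq start (GRCm38.p6), 5′ to 3′ on the gene's strand. The places are chr5:91139349-91139598 (plus) for Areg, chr5:91402995-91403244 (minus) for Btc, chr11:98412234-98412483 (plus) for Erbb2 and chr6:94700146-94700395 (minus) for Lrig1. Capitals mark TATAAA (the TATA box), TGACGTCA (the cAMP response element), TGANTCA (the AP-1 element) and GGGCGG (the GC box), searched on both strands.
Areg: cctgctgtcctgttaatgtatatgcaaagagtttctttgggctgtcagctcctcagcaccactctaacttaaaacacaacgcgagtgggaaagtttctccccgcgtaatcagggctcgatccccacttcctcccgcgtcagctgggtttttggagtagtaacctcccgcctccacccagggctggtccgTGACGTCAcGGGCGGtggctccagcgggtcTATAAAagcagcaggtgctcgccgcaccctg
Btc: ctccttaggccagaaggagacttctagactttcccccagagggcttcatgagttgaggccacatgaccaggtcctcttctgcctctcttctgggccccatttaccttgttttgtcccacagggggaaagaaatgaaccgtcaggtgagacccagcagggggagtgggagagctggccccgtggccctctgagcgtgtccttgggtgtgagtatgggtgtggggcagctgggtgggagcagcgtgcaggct
Erbb2: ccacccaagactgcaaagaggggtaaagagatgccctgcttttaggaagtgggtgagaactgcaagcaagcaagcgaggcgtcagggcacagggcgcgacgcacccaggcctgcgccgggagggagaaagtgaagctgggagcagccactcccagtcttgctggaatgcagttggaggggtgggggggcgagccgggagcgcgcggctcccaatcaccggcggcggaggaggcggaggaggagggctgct
Lrig1: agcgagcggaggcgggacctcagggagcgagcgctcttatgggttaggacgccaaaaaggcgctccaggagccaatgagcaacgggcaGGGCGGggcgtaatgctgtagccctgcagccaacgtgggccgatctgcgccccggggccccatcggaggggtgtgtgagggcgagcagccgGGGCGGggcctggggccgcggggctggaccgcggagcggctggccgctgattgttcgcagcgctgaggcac
Areg held a TATA box beginning 31 bases before the start, a cAMP response element at 61 bases and a GC box at 52 bases, none of which overlap. Lrig1 held 2 GC boxes, at 162 and 71 bases. Btc and Erbb2 held none of these letters in the window. Over all 32851 promoters of the table, the same window held the TATA box in 12.4%, the cAMP response element in 1.55%, the AP-1 letters in 6.75% and the GC box in 32.7%. The matches describe letters, not bound sites.

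The comparison between the cell types asked which cells make ligand and which make receptor. Of the 10 members, 9 differed at least 2-fold between macrophages and epithelial cells by edgeR's quasi-likelihood test with Benjamini-Hochberg adjustment over all genes. The background was high: 52.2% of the 16375 genes tested differed, 29.7% being higher in macrophages and 22.5% higher in epithelial cells. Among members, 8 were lower in macrophages, Ereg was higher, and Areg did not pass. The median log2 difference, macrophages over epithelial cells, was -2.78 for the members and 0.07 for all genes tested. Egf, which had no count in wt macrophages, lay below the median of the members as estimated and at its bound of -3.40. Setting it to the bound could therefore not move this median. In bulk libraries a difference in level may stem from fewer expressing cells or from less RNA per cell, which cannot be told apart.

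**Figure D1:**
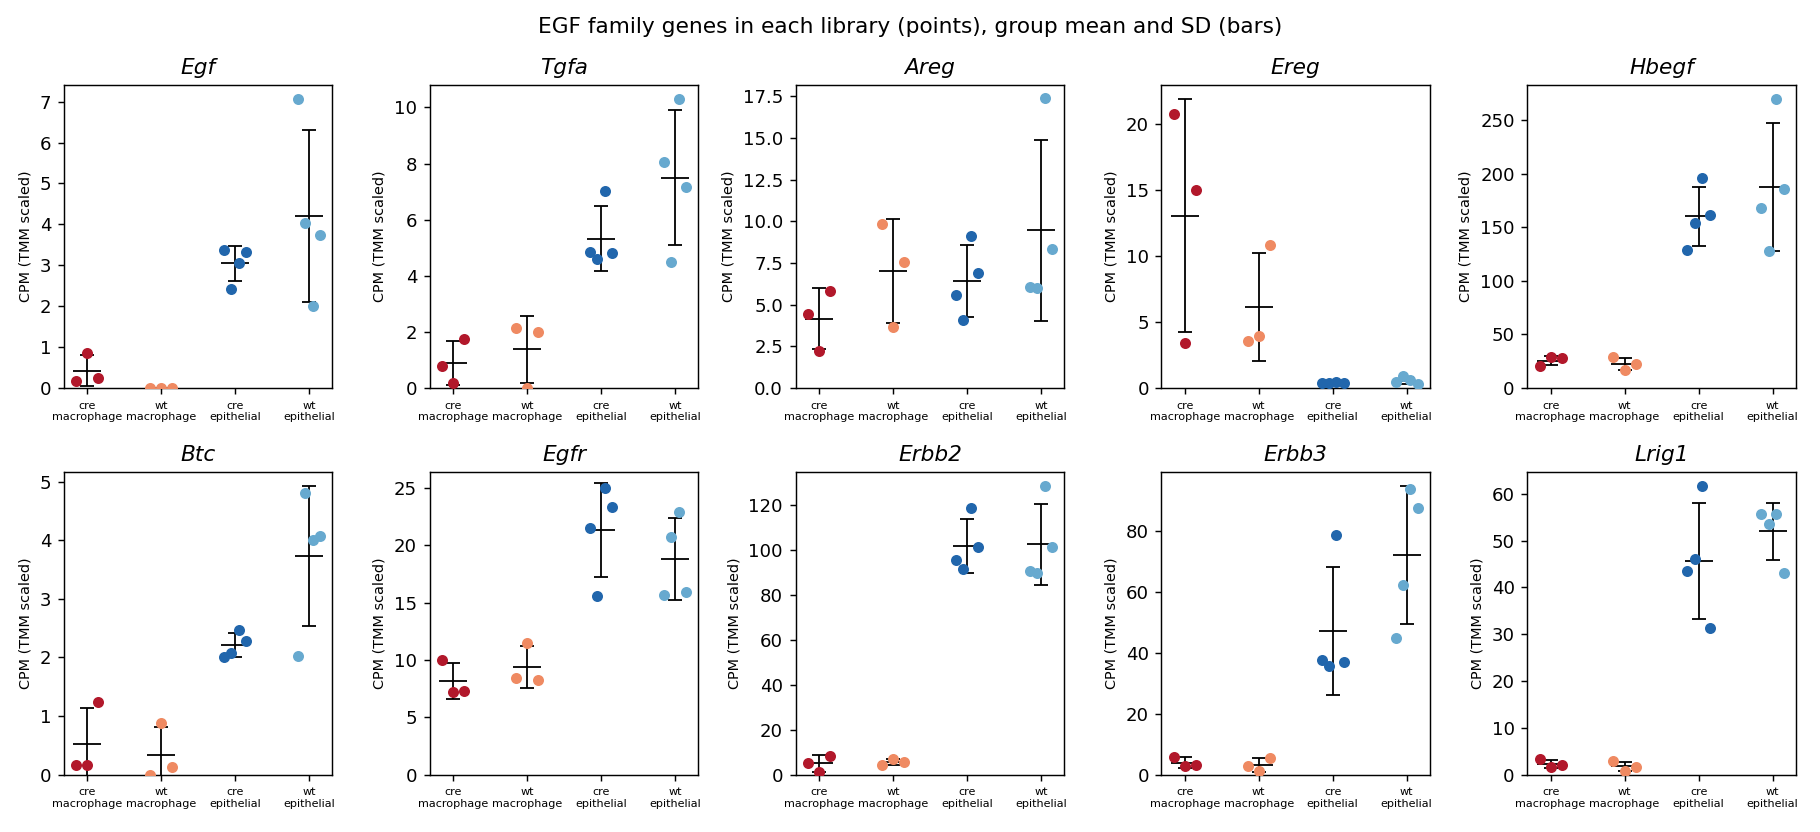
Levels of the 10 EGF family genes in CPM (linear axes, each from 0), with 1 point per library in cre macrophages, wt macrophages, cre epithelial cells and wt epithelial cells, and bars for the group mean and SD. Ereg lies at 3.41 to 20.8 CPM in macrophages and at 0.873 CPM or less in epithelial cells, Areg overlaps between the populations, and the other 8 genes are higher in every epithelial library than in any macrophage library. How many of all genes separate in this way was not counted, and 52.2% of those tested differed at least 2-fold.

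Hbegf, which encodes the heparin-binding ligand, had the highest deposited FPKM (fragments scaled to transcript length and to the library total) of the 6 ligands in each of the 14 libraries. Values are given in the order of the numbers above. In macrophages it had 28.5, 27.9 and 20.3 CPM in cre and 28.5, 16.8 and 22.0 CPM in wt. In epithelial cells it had 154, 196, 161 and 129 CPM in cre and 168, 128, 270.5 and 186 CPM in wt. Every macrophage library lay below every epithelial library, and the genotypes overlapped within each population. The log2 difference was -2.85 (SE 0.18, edgeR adjusted p = 3.25e-10).

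Areg encodes amphiregulin, a ligand known in tissue repair. Macrophages had 2.22, 5.83 and 4.44 CPM in cre and 9.84, 3.68 and 7.55 CPM in wt. Epithelial cells had 4.07, 9.15, 6.92 and 5.56 CPM in cre and 6.05, 6.01, 17.4 and 8.34 CPM in wt. The populations overlapped, although the highest cre macrophage library (5.83 CPM) lay just below the lowest wt epithelial one (6.01 CPM). The log2 difference of -0.50 (SE 0.31) did not pass the test (edgeR adjusted p = 0.160).

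Ereg encodes epiregulin, a ligand of EGFR and ERBB4. Its macrophage levels were 3.41, 15.01 and 20.8 CPM in cre and 3.56, 3.97 and 10.9 CPM in wt. Epithelial libraries held 4 counts each in cre (0.346 to 0.469 CPM) and 3 to 8 counts in wt (0.321 to 0.873 CPM), close to the limit that a count of 0 allows. No epithelial library reached any macrophage library, and the log2 difference was 4.25 (SE 0.42, edgeR adjusted p = 9.30e-08). The spread within the macrophage groups was wide, with cre macrophage 8 near the lowest wt libraries and cre macrophage 10 highest.

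The other 3 ligands were low and epithelial. Tgfa, transforming growth factor alpha, had 0.171, 1.74 and 0.794 CPM in cre and 2.13, 0 and 1.99 CPM in wt macrophages, against 4.48 to 10.3 CPM over the 8 epithelial libraries (log2 difference -2.43, SE 0.46, edgeR adjusted p = 0.000142). Btc, betacellulin, had 0.171, 1.241 and 0.159 CPM in cre and 0, 0.883 and 0.133 CPM in wt macrophages, against 2.01 to 4.80 CPM in epithelial libraries (log2 difference -2.72, SE 0.52, adjusted p = 0.000182). For both, all macrophage libraries lay below all epithelial ones. Egf, the founding ligand, gave 5, 2 and 1 counts in cre macrophages and no count in any wt macrophage library. Epithelial libraries held 14 to 63 counts, or up to 7.06 CPM, and Egf passed the cell type test (edgeR adjusted p = 6.80e-07). In wt mice its epithelial mean was at least 10.6-fold higher than a floor of 3 counts per macrophage library.

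The receptor genes were all higher in epithelial cells, to unequal degrees. Egfr, whose product these ligands bind, had 7.17, 7.32 and 9.998 CPM in cre and 8.42, 11.5 and 8.22 CPM in wt macrophages. Epithelial levels were 15.6, 25.0, 23.4 and 21.5 CPM in cre and 15.7, 20.8, 22.9 and 15.9 CPM in wt. The ranges did not meet, but the difference was the smallest of the 9 that passed (log2 -1.20, SE 0.16, edgeR adjusted p = 5.43e-06). In the limma tests on log2 of deposited FPKM it was under the 2-fold limit, at -0.53 with a pseudocount of 1 and -0.97 with a pseudocount of 0.1. Beside these macrophage values stand fibroblast and muscle sums of 1524, 3641 and 2517 CPM in cre and 7153, 7958 and 4402 CPM in wt, and the part of such cells in the macrophage level of Egfr was not tested.

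Erbb2, the ligandless partner, had 1.19, 8.44 and 5.40 CPM in cre and 4.27, 7.06 and 5.43 CPM in wt macrophages. In epithelial cells it had 91.3, 119, 101 and 95.6 CPM in cre and 90.7, 89.9, 128 and 101 CPM in wt, an even level over the 8 libraries (log2 difference -4.25, SE 0.26, edgeR adjusted p = 2.24e-10). Exons of Erbb2 overlap those of Mien1 on the opposite strand, whose counts came to 28.9% of those of Erbb2, and reads of both cannot be told apart without strand. Erbb3, the neuregulin receptor, had 2.73, 3.23 and 5.87 CPM in cre and 2.97, 1.03 and 5.43 CPM in wt macrophages. In epithelial cells its levels were uneven, with 35.6, 78.6, 37.0 and 37.5 CPM in cre and 44.9, 62.0, 93.6 and 87.5 CPM in wt (log2 difference -4.04, SE 0.33, adjusted p = 1.23e-08). Lrig1 had 1.54, 1.98 and 3.33 CPM in cre and 2.85, 0.883 and 1.59 CPM in wt macrophages. Its epithelial levels were 46.1, 61.7, 31.4 and 43.5 CPM in cre and 55.8, 53.6, 55.7 and 43.0 CPM in wt (log2 difference -4.57, SE 0.24, adjusted p = 2.49e-11). For Erbb2, Erbb3 and Lrig1 no macrophage library came near an epithelial one. Lrig1 also shares exon bases with Slc25a26 on the opposite strand, whose counts came to 14.3% of its own.

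Macrophage levels of the members were compared with those of genes that epithelial cells define. The mean macrophage CPM was 4.15% of the epithelial mean for Lrig1, 5.19% for Erbb2, 5.79% for Egf and 5.95% for Erbb3. It was 13.8% for Hbegf, 14.5% for Btc, 17.8% for Tgfa, 43.7% for Egfr and 70.5% for Areg. The 13 pan-epithelial genes had a median of 1.60%, and 12 of them lay between 1.08% and 2.08%, the exception being Spint1 at 99.6%. On these means each member lay above those 12 genes, but not above all genes of single epithelial cell types. The value of Egf rests on 8 counts in cre macrophages and 0 in wt macrophages. The 7 goblet cell genes reached 4.24% (Tff3), just above Lrig1. The 6 stem cell genes had a median of 4.01%, with Slc12a2 at 4.96% and Sox9 at 5.57%, among the values of Lrig1, Erbb2, Egf and Erbb3. In the other direction the epithelial mean of Ereg was 4.87% of its macrophage mean, on 3 to 8 counts per epithelial library. The 13 macrophage genes had a median of 0.439%, with Cd14 at 3.87% and Mertk highest at 32.9%, so that Ereg lay within their range.

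**Figure D2:**
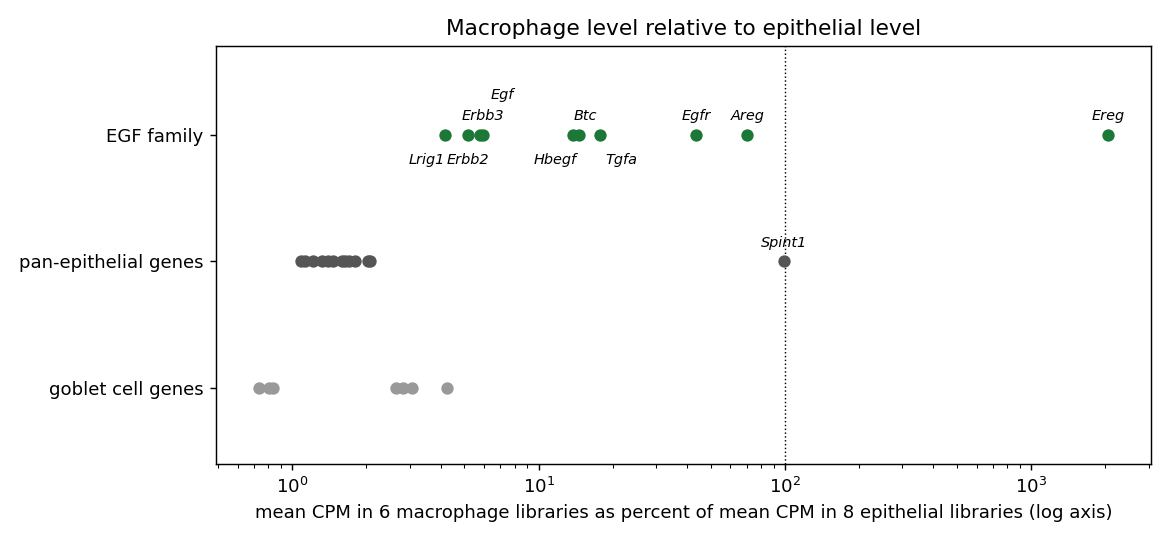
Mean CPM in 6 macrophage libraries as percent of the mean in 8 epithelial libraries (log axis; the dotted line marks equal levels), with 1 point per gene for the EGF family, 13 pan-epithelial genes and 7 goblet cell genes. The 9 members other than Ereg lie between 4.15% and 70.5%, to the right of 12 of 13 pan-epithelial genes, and Ereg lies at 2051%. Egf, at 5.79%, rests on 8 counts in cre macrophages and 0 in wt macrophages.

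Levels of different genes were ordered per length, on the deposited FPKM. Over the 8 epithelial libraries the mean was 55.8 ± 14.8 FPKM for Hbegf, 15.5 ± 2.25 for Erbb2, 7.53 ± 3.06 for Erbb3, 7.49 ± 1.47 for Lrig1 and 4.97 ± 2.60 for Areg (SD, n = 8). Egfr followed at 1.40 ± 0.274, Tgfa at 1.08 ± 0.350, Btc at 0.782 ± 0.292, Egf at 0.574 ± 0.236 and Ereg at 0.0860 ± 0.0326 FPKM (SD, n = 8). Neighbours in this order had separate ranges between Hbegf and Erbb2, between Erbb2 and Erbb3, between Areg and Egfr and between Egf and Ereg, and overlapped elsewhere. In epithelial cells Egfr was thus listed below both of its partners and below Lrig1. Over the 6 macrophage libraries the mean was 8.30 ± 1.65 FPKM for Hbegf, 3.78 ± 1.83 for Areg, 1.93 ± 1.47 for Ereg, 0.876 ± 0.420 for Erbb2 and 0.660 ± 0.132 for Egfr (SD, n = 6). Erbb3, Lrig1, Tgfa, Btc and Egf were lower, from 0.486 down to 0.0357 FPKM, and all neighbours in the macrophage order overlapped.

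**Figure D3:**
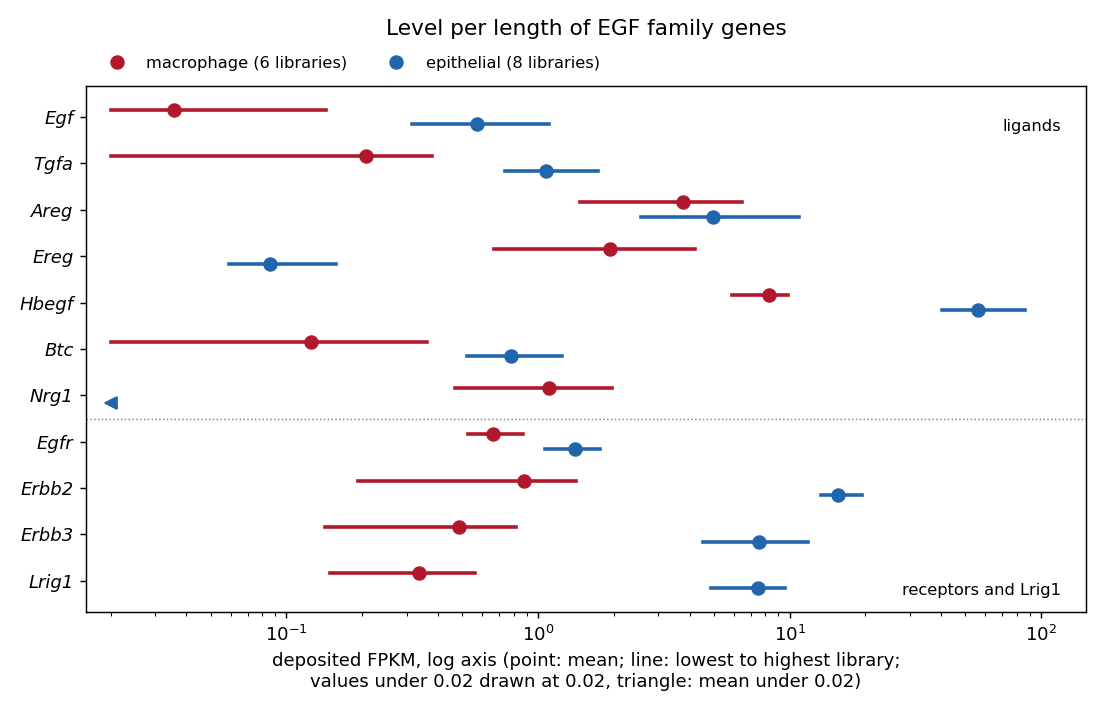
Deposited FPKM (log axis) of the EGF family genes and Nrg1 in macrophages and in epithelial cells, with points for the mean and lines from the lowest to the highest library. Hbegf stands highest in both populations, at 8.30 FPKM in macrophages and 55.8 FPKM in epithelial cells, while Areg is the ligand whose lines overlap.

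Summed over the 6 ligands, macrophages held 14.4 ± 3.14 FPKM (SD, n = 6) and epithelial cells 63.3 ± 17.5 FPKM (SD, n = 8). Of this sum Hbegf took 58.8 ± 11.6% in macrophages and 88.3 ± 1.86% in epithelial cells, with ranges of 48.8% to 80.4% and 86.0% to 92.0% that did not meet. Areg took 25.6 ± 9.17% in macrophages and 7.55 ± 1.72% in epithelial cells, and Ereg took 13.0 ± 9.22% in macrophages and 0.145 ± 0.0797% in epithelial cells. Summed over Egfr, Erbb2 and Erbb3, macrophages held 2.02 ± 0.536 FPKM and epithelial cells 24.5 ± 5.05 FPKM. Egfr was 34.4 ± 9.21% of the receptor sum in macrophages and 5.82 ± 1.16% in epithelial cells, where Erbb2 took 64.3 ± 6.16%.

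The neuregulins, ligands of ERBB3 and ERBB4, complete the family. Nrg1 was detected mainly in macrophage libraries, with 10.6, 22.6 and 15.7 CPM in cre and 12.3, 10.7 and 5.43 CPM in wt macrophages. The 8 epithelial libraries held 4 counts of it in all, so that no fold is given, and it passed the cell type test (edgeR adjusted p = 1.72e-10). Nrg2 reached 1.88 CPM and Nrg4 1.64 CPM at most, Epgn had 2 counts in 1 epithelial library, and Nrg3 and the receptor gene Erbb4 had no count in any of the 14 libraries. The fibroblast and muscle sums given for Egfr apply to Nrg1 too. They were lower in each cre than in each wt macrophage library. Of 14 genes of that list tested between the genotypes, 11 had negative log2 changes, with a median of -1.24. Those that passed were Mfap4 (-2.10, edgeR adjusted p = 0.0227) and Fbln1 (-1.91, adjusted p = 0.0383). The 3 positive ones included Pdgfra at 0.22 and Acta2 at 0.04, neither of which passed (edgeR adjusted p = 0.906 and 0.961). Endothelial sums were 65.2, 747 and 290 CPM in cre and 352, 190 and 332 CPM in wt macrophages. The part of these cells in Nrg1 was not tested. Mean Nrg1 was 16.3 ± 6.02 CPM in cre and 9.50 ± 3.61 CPM in wt (SD, n = 3 each). The log2 change of 0.80 (SE 0.38) did not pass (edgeR adjusted p = 0.421).

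In macrophages, cells that express Lyz2, the comparison of cre with wt libraries asked what accompanies the cre genotype. The Tsc2 count given above does not show a loss of its RNA. No member passed: 0 of the 8 tested were called, against 0.944% of all 14087 genes (0.731% being higher and 0.213% lower in cre). None had an unadjusted p under 0.05, against 1802 of all 14087 genes. DESeq2 called none either. Of the 8 log2 changes 4 were positive and 4 negative, with a median of 0.04 (0.00 over all genes). Egf and Btc did not reach the count filter.

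Ereg had the largest estimate. It averaged 13.1 ± 8.85 CPM in cre and 6.13 ± 4.10 CPM in wt macrophages (SD, n = 3 each), a log2 change of 1.11 (SE 0.66, edgeR adjusted p = 0.547) that was positive in all 17 alternatives, from 0.27 to 1.82. The low end was 0.27 with sex in the model, next to 0.28 among males, where a single wt library is set against 3 cre ones. Areg went the other way in its mean, with 4.16 ± 1.82 CPM in cre and 7.03 ± 3.12 CPM in wt (log2 change -0.72, SE 0.47, adjusted p = 0.594). Both genes overlapped between the genotypes. Hbegf had 25.6 ± 4.57 CPM in cre and 22.4 ± 5.86 CPM in wt (log2 change 0.21, SE 0.24, adjusted p = 0.797), and Tgfa a log2 change of -0.55 (SE 1.08, adjusted p = 0.892). Egf was the sole member without overlap, since its 8 counts fell in the 3 cre libraries, and all of these values lie near the limit that a count of 0 allows. How many of all genes lack overlap between the genotypes was not counted.

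Among the receptors, Egfr had 8.16 ± 1.59 CPM in cre and 9.37 ± 1.83 CPM in wt macrophages (log2 change -0.19, SE 0.30, edgeR adjusted p = 0.862). The estimates were -0.12 for Erbb2 (SE 0.59, adjusted p = 0.961), 0.33 for Erbb3 (SE 0.60, adjusted p = 0.878) and 0.37 for Lrig1 (SE 0.59, adjusted p = 0.860). With sex in the model the estimate for Erbb3 was -0.46. Among males it was -0.45, where the wt arm is a single library assumed to vary like the others. All cre macrophages came from males, so sex and genotype overlap here. Macrophage libraries held 6 to 68 counts of Erbb2, Erbb3 and Lrig1, and differences within such errors were not detectable at this depth.

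In epithelial cells the same comparison asked what accompanies the cre genotype outside the myeloid cells that Lyz2 marks. Again no member passed: 0 of the 9 tested were called, against 9.17% of all 13553 genes, 5.64% being higher and 3.53% lower in cre. DESeq2 called none. Of the 9 log2 changes 8 were negative, with a median of -0.49 against -0.05 over all genes tested, of which 44.8% were positive. An unadjusted p under 0.05 was found for 1 of the 9, and for 3696 of all 13553 genes. Ereg did not reach the count filter.

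**Figure D4:**
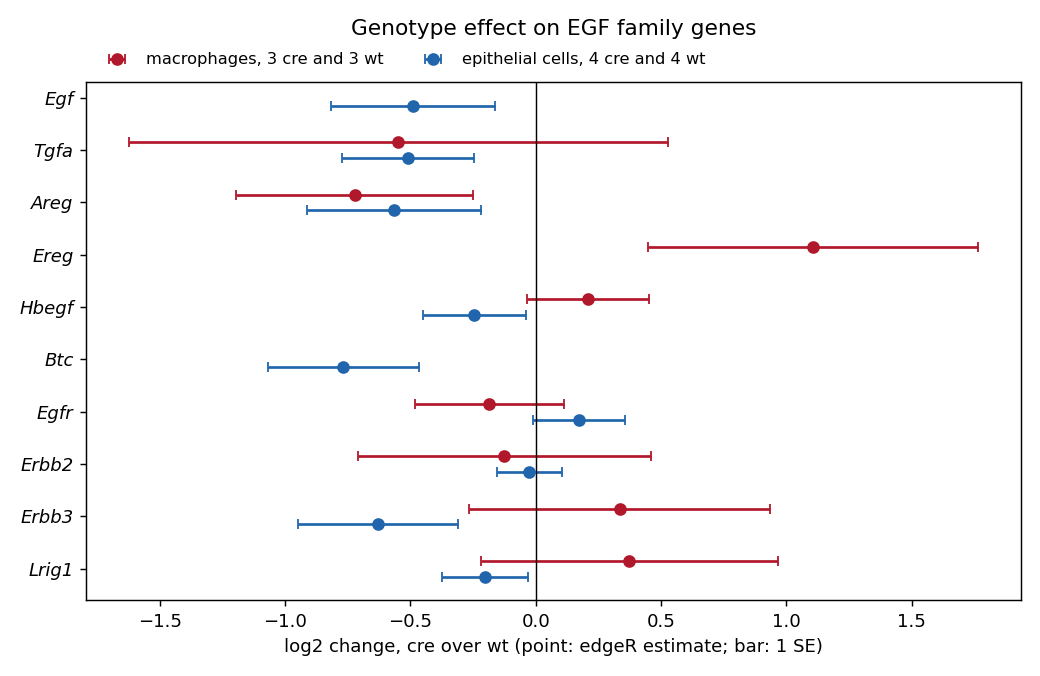
Log2 change of cre over wt for the members tested, as edgeR estimates with bars of 1 SE, in macrophages (3 cre and 3 wt libraries) and epithelial cells (4 cre and 4 wt libraries). In epithelial cells 8 of 9 estimates lie left of 0, from -0.77 for Btc to -0.02 for Erbb2, and no estimate in either population passed the adjusted test. Over all genes tested in epithelial cells, 44.8% of the estimates were positive.

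The ligands were lower in their means. Btc, with the smallest p, had 2.08, 2.46, 2.28 and 2.01 CPM in cre and 2.02, 4.80, 4.00 and 4.06 CPM in wt epithelial cells. All but 1 of the wt libraries lay above every cre library, and the log2 change was -0.77 (SE 0.30, unadjusted p = 0.0230, edgeR adjusted p = 0.117). Areg had 6.42 ± 2.16 CPM in cre and 9.46 ± 5.43 CPM in wt (log2 change -0.57, SE 0.35, adjusted p = 0.314). Tgfa had 5.32 ± 1.15 CPM in cre and 7.50 ± 2.40 CPM in wt (-0.51, SE 0.26, adjusted p = 0.226), and Egf 3.04 ± 0.437 CPM in cre and 4.21 ± 2.10 CPM in wt (-0.49, SE 0.33, adjusted p = 0.352). Among males alone Egf turned to 0.15. Hbegf, the dominant ligand, had 160.3 ± 27.8 CPM in cre and 188 ± 59.9 CPM in wt (SD, n = 4 each; -0.25, SE 0.21, adjusted p = 0.471). In each of these genes the genotypes overlapped.

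Among the receptors, Erbb2 had 102 ± 12.1 CPM in cre and 103 ± 18.0 CPM in wt epithelial cells (log2 change -0.02, SE 0.13, edgeR adjusted p = 0.926). Egfr had 21.4 ± 4.11 CPM in cre and 18.8 ± 3.57 CPM in wt (0.17, SE 0.18, adjusted p = 0.571). With the GC content and length trend of each library removed, Egfr passed, at 0.62 with an adjusted p of 0.0481. That fit called 624 of 13543 genes. Lrig1 had 45.7 ± 12.4 CPM in cre and 52.0 ± 6.11 CPM in wt (-0.20, SE 0.17, adjusted p = 0.471).

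The call of Erbb3 depended on 1 library. This receptor gene had 47.2 ± 21.0 CPM in cre and 72.0 ± 22.6 CPM in wt (SD, n = 4 each), and over all 8 libraries it did not pass (log2 change -0.63, SE 0.32, edgeR adjusted p = 0.244). In cre the values 35.6, 37.0 and 37.5 CPM lay below every wt library, and cre epithelial 8 at 78.6 CPM lay above 2 of the 4. Without cre epithelial 8 the log2 change was -0.98 and passed the test (adjusted p = 0.0157), in a fit that called 1947 of 13810 genes. With wt epithelial 6 left out as well, an alternative chosen after seeing the data, the log2 change was -0.83 (adjusted p = 0.0111). That fit called 2359 of 13680 genes.

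The share of counts from a ribosomal RNA gene differed between the epithelial libraries. It was 13.3 ± 9.05% in cre and 23.4 ± 5.87% in wt epithelial libraries (SD, n = 4 each), and was highest in each genotype in cre epithelial 8 (26.7%) and wt epithelial 6 (31.8%). Of the 9 members tested, cre epithelial 8 was the highest cre library for 8, and wt epithelial 6 the highest wt library for 6. How often each library was highest over all genes was not counted. Over the whole table, cre epithelial 8 differed most from the other cre libraries (chi-square over degrees of freedom 66.6 to 107, against 7.15 to 11.2 among those). For wt epithelial 6 this value was 36.3 to 47.5, against 6.72 to 20.6 among the other wt libraries. With this share as a covariate, the log2 change was -0.08 for Erbb3 (adjusted p = 0.884) and changed sign for Areg (0.20), Hbegf (0.16), Erbb2 (0.23) and Lrig1 (0.03). It stayed negative for Btc (-0.67, adjusted p = 0.442). Over all genes this fit called 3 of 13553, against 1243 without the covariate. Since the share differed with genotype, the parts of share and genotype cannot be told apart here. Markers of cell types also differed between the epithelial groups. Summed stem cell markers, a crypt population in which Lrig1 is known, were 199 to 222 CPM in cre and 256 to 337 CPM in wt. Of the 6 genes 5 had negative log2 changes and only Slc12a2 passed (-0.93, edgeR adjusted p = 0.00648), while Ascl2 was at 0.22 (adjusted p = 0.313). Of 11 macrophage genes tested all had negative log2 changes and 3 passed, at sums of 37.9 to 76.1 CPM in cre and 57.1 to 119 CPM in wt, and Lyz2 fell too (-1.40, adjusted p = 0.00648). All 4 enteroendocrine and all 3 tuft cell genes tested were negative, with 1 passing in each list. Of 13 pan-epithelial genes 3 were higher and 1 lower in cre, among them the keratin gene Krt8 (0.62, adjusted p = 0.00648). The part of cell make-up in the members' means was not tested.

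**Figure D5:**
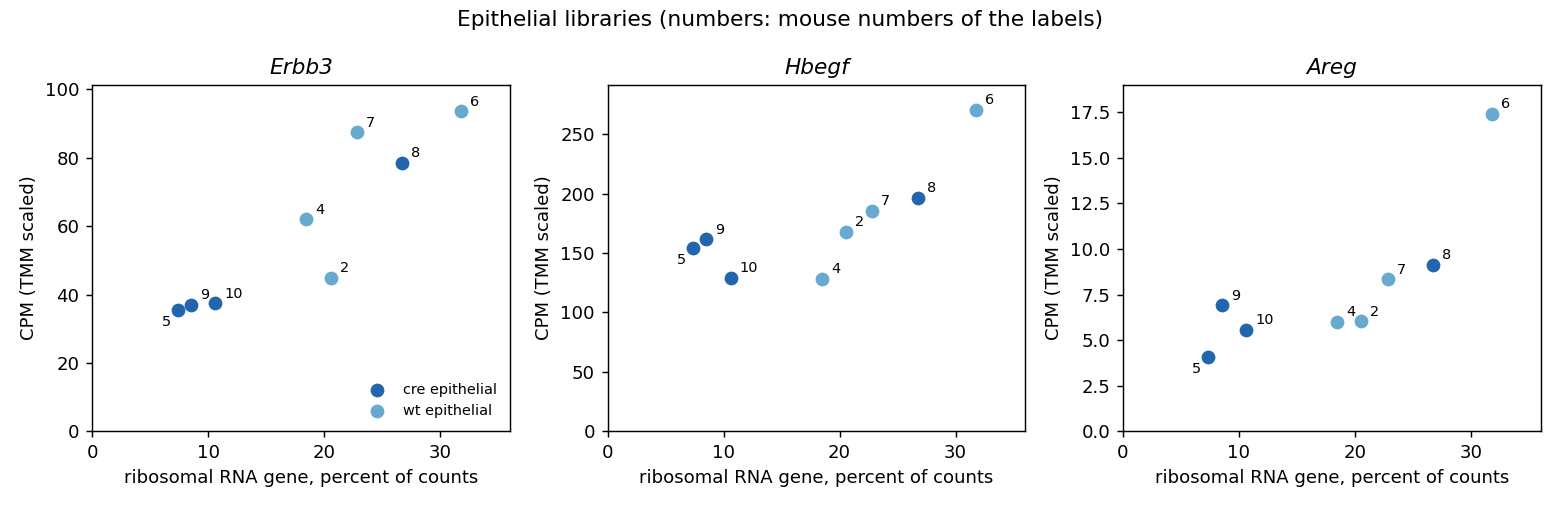
CPM of Erbb3, Hbegf and Areg (linear axes from 0) against the percent of counts from the ribosomal RNA gene, with 1 point per epithelial library, numbered as in the titles. The 3 cre libraries with a share of 7.37% to 10.6% have 35.6 to 37.5 CPM of Erbb3, and cre epithelial 8, with a share of 26.7%, has 78.6 CPM.

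The genotype effects were also compared between the populations in one fit of all 14 libraries. None of the 10 members passed, against 0.702% of 16375 genes, and DESeq2 called none. The difference of effects, macrophages minus epithelial cells, was 1.62 for Ereg (SE 0.89, edgeR adjusted p = 0.400), 1.56 for Btc (SE 1.08, adjusted p = 0.526; -0.13 without cre macrophage 9) and 0.92 for Erbb3 (SE 0.63, adjusted p = 0.524). It was 0.42 for Hbegf (SE 0.33, adjusted p = 0.591), 0.51 for Lrig1 (SE 0.47, adjusted p = 0.651) and -0.38 for Egfr (SE 0.32, adjusted p = 0.617). For Areg (-0.19), Erbb2 (-0.09) and Tgfa (-0.07) the sign changed on leaving out some single libraries. Egf alone had an unadjusted p under 0.05 in the edgeR test (0.00266, adjusted p = 0.114), beside 2509 of all 16375 genes. Its macrophage values rest on 8 counts in cre and none in wt, so that no fold is given. The median over the members was 0.47, and 0.04 over all genes. Egf lay above the members' median as estimated and at its bound of 0.545, so the bound could not move this median.

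Other genes of the pathway were counted by list. Between the cell types, of 12 tested genes of ligand release 8 were higher and 1 lower in macrophages, with a median log2 difference of 1.60. Adam8 (8.13, SE 0.20), Adam19 (7.95, SE 0.38), Adam17 (2.69, SE 0.14) and Adam15 (2.11, SE 0.11) led by p, and all encode membrane metalloproteases, Adam17 being the best known sheddase of EGFR ligands. Of 17 feedback inhibitors 10 were higher and 2 lower in macrophages, with a median of 1.04. The ERK phosphatase gene Dusp5 (3.94, SE 0.20), Spred1 (2.64, SE 0.17) and the ubiquitin ligase gene Cbl (2.41, SE 0.20) were higher, and the ligase gene Cblc (-6.15, SE 0.25) was lower. Of 24 adaptors and kinases 7 were higher and 1 lower (median 0.48), with Gab2 at 3.06 (SE 0.20), the adaptor gene Grb2 at 2.77 (SE 0.17), Pik3r1 at 1.31 (SE 0.13) and Nras at 1.26 (SE 0.09). Of 11 ERK target genes 6 were higher and 1 lower (median 1.15), with Ier3 at 4.68 (SE 0.16), Mcl1 at 3.14 (SE 0.11), Fos at 1.81 (SE 0.14) and Egr1 at 1.41 (SE 0.17). The other genes lower in macrophages, named here after their values were seen, were the rhomboid protease gene Rhbdl2 (-2.11) among genes of ligand release, the LRIG1 relative Lrig3 (-3.22) among feedback inhibitors, Hras (-1.65) among adaptors and the ETS factor gene Etv4 (-4.74) among ERK targets. These shares stand beside the 29.7% and 22.5% of all genes that were higher and lower in macrophages.

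Between the genotypes few of these genes passed. In macrophages none of the 59 tested did, against 0.944% of all genes. The smallest p in each list belonged to Ier3 (log2 change 0.75, edgeR adjusted p = 0.131), Adam9 (0.79, adjusted p = 0.160), Dusp5 (-0.83, adjusted p = 0.194) and Grb2 (0.56, adjusted p = 0.250), followed by Adam8 (-0.45), Spred1 (-0.45), Shc1 (-0.48) and Ccnd1 (-0.39). In epithelial cells 4 of 60 passed, 3 of which are described, against 9.17% of all genes. Cbl, whose product marks active receptors for degradation, was lower in cre (-1.17, SE 0.30, adjusted p = 0.0302), as was the PI3K regulatory subunit gene Pik3r1 (-0.56, SE 0.15, adjusted p = 0.0379). The RAF kinase gene Araf was higher (0.49, SE 0.10, adjusted p = 0.0109). These calls depended on the libraries and on the fit. Cbl was no longer called without cre epithelial 5 (adjusted p = 0.107), 9 (0.0946) or 10 (0.0846), or without wt epithelial 4 (0.0527) or 6 (0.0576). Araf was not called without cre epithelial 9 (adjusted p = 0.0569). Pik3r1 was not called without cre epithelial 5 (adjusted p = 0.103), 9 (0.0678) or 10 (0.116), or without wt epithelial 2 (0.0663), 4 (0.0635) or 6 (0.0665). With the ribosomal RNA share as a covariate none of these 3 was called, at -0.61 for Cbl (adjusted p = 0.365), -0.52 for Pik3r1 (adjusted p = 0.242) and 0.44 for Araf (adjusted p = 0.114). With the GC content and length trend removed Pik3r1 was at -0.16 (adjusted p = 0.581) and Cbl at -0.73 (adjusted p = 0.1002), and Araf was called at 0.57 (adjusted p = 0.0134). Among males, and in the fit of all 14 libraries, none of the 3 was called, with adjusted p of 0.146 to 0.198 among males and of 0.0646 to 0.131 in the joint fit. Feedback inhibitors had negative log2 changes in 14 of 15 tested (median -0.37), and adaptors and kinases in 19 of 24 (median -0.22), beside a median of -0.05 over all genes. Of all genes tested 44.8% had positive log2 changes. Of the genes that did not pass, those with the smallest p in each list included Rhbdf1 (0.54, adjusted p = 0.0573), Adam10 (-0.43, adjusted p = 0.0655), Ier2 (0.40, adjusted p = 0.0887) and Myc (-0.64, adjusted p = 0.130). For the difference of effects none of 64 passed, against 0.702% of all genes. The 2 smallest p of each list belonged to Sos2 (1.74, adjusted p = 0.117) and Sos1 (1.64, adjusted p = 0.136) among adaptors and kinases and to Cbl (1.35, adjusted p = 0.138) and Cblb (0.91) among feedback inhibitors. They belonged to Rhbdf1 (-1.16, adjusted p = 0.149) and Adam19 (3.18, adjusted p = 0.161) among genes of ligand release and to Mcl1 (0.46) and Ier3 (0.61) among ERK targets.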

How the data were processed

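RNA of the sorted cells was turned into full-length cDNA with Smart-seq2 and libraries with Nextera XT, read as 50 bp single reads without strand, per the labels' protocols. STAR 2.5.2b, Picard 2.19.2, DESeq2 1.24.0 and GRCm38 stand in the submitters' processing notes; which counter, annotation release and strand setting were used is not given in these sources. The authors deposited raw counts per gene and library and a table of FPKM, with 14 columns each, 1 per library. The FPKM are the authors' values and were used as deposited to order genes per length.

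The deposited counts went into edgeR 4.0.16 (R 4.3.3), with TMM scaling, a filterByExpr minimum of 10 counts, robust quasi-likelihood F tests and Benjamini-Hochberg adjustment over all genes tested, with calls at an adjusted p under 0.05. Each population was fitted alone on genotype. The cell type contrast, which also needed a 2-fold difference, and the difference of genotype effects used all 14 libraries in 4 groups. CPM were computed on TMM-scaled library sizes. Floors cover counting error only. An exact two-sided permutation test of 3 against 3 libraries cannot give a p below 0.10, and one of 4 against 4 none below 0.0286. Libraries of a group all differed beyond sampling noise, wt epithelial 2 and 4 least (chi-square over degrees of freedom 6.72).

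All 10 members were named. From each pathway list up to 4 called genes with the smallest p were named, or the 2 with the smallest p where none was called, and genes named outside this rule, marker genes included, were chosen after their values were seen; 1 gene that the rule picks is not reported here. Members, lists and this rule were chosen with earlier results of these data known. The alternatives used DESeq2 1.42.0, RLE size factors, a minimum count of 50 or none, limma 3.58.1 on log2(FPKM + 1) or log2(FPKM + 0.1) for genes averaging at least 1 FPKM or for all, a covariate for sex or for the ribosomal RNA share, only the males, a joint fit of every library, a replicate block, 1 genotype only, a spline trend on GC content and length removed, and each library left out. Of the gene IDs, 55141 of 55487 are in GENCODE M21, which gave exon overlaps.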

Additional observations from a re-analysis of the deposited data

Results flagged for a closer look

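In groups of 4 libraries, a library whose gap to the nearest other exceeded Dixon's 95% limit was looked for in 20 combinations of member and epithelial genotype. Chance flags about 1 in 20 groups, and 4 were found. Erbb3 had 78.6 CPM in cre epithelial 8, against 35.6 to 37.5 CPM in the other cre libraries. Tgfa had 7.04 CPM in the same library, against 4.59 to 4.83 CPM. Ereg had 0.469 CPM there, against 0.346 to 0.365 CPM, although each of these libraries held 4 counts. Lrig1 had 43.0 CPM in wt epithelial 7, below the 53.6 to 55.8 CPM of the other wt libraries. In 3 of the 4 cases the library was cre epithelial 8, but the CPM of Ereg differed there only through the library scaling. The ribosomal RNA share of this library was 26.7%, against 7.37% to 10.6% in the other cre libraries. Its part in the values of Erbb3 and Tgfa was not tested.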

How the results depend on the processing

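Between the cell types 9 members were called on leaving out any library and in cre or wt mice alone. The limma tests on FPKM called 4 of the 6 members that reached their filter (4 with a pseudocount of 1, 4 with 0.1) and 5 of 10 without it, with 4994 and 5536 genes called in all at a pseudocount of 1 with and without the filter. Without the filter, Egf, Tgfa, Btc and Egfr had adjusted p of 0.000108 to 0.000387 in the limma test. They missed only the 2-fold limit, with log2 differences of -0.78 to -0.53. Between the genotypes no member was called in macrophages under any alternative. In epithelial cells 1 was called without cre epithelial 8 (range on leaving out a library 0 to 1), 1 (Egfr) with the GC and length trend removed and 1 (Erbb3) without wt epithelial 6 and cre epithelial 8. Over all genes tested, these fits called 1947 of 13810, 624 of 13543 and 2359 of 13680.

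Counts over all genes moved more. In macrophages 133 genes became 485 with DESeq2, 299 without a filter, 47 with limma without a filter, 2 with sex as a covariate, 32 in males, 18 with the ribosomal RNA share, 374 with all 14 libraries and 29 to 87 without 1 library (29 without cre 10). In epithelial cells 1243 became 0 with limma without a filter, 5 in males, 3 with the ribosomal RNA share, 19 with all libraries, 624 with the GC and length trend removed, 2359 without the 2 libraries of highest ribosomal RNA share and 178 to 1947 without 1 library (178 without cre 9, 1947 without cre 8). For the difference of effects 115 became 504 with DESeq2, 195 without a filter, 297 and 183 with limma with and without a filter and 54 to 229 without 1 library. The causes were not tested.

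Signs of values that had not passed also turned. In macrophages the log2 change of Erbb3 was -0.46 with sex as a covariate and -0.45 in males, that of Tsc2 0.31 and 0.32, and with the ribosomal RNA share Tgfa was at 0.22 and Erbb2 at 0.31. Without 1 library, Erbb3 ranged from -0.068 to 0.99 and Erbb2 from -0.73 to 0.33. In epithelial cells Erbb2 was at 0.024, 0.026 and 0.024 in the 3 limma fits, 0.068 with the GC and length trend removed, 0.025 without the 2 libraries and -0.11 to 0.11 without 1 library. Egf was at 0.15 in males, and with the ribosomal RNA share Areg was at 0.20, Hbegf at 0.16, Erbb2 at 0.23 and Lrig1 at 0.031. For the difference of effects, Tgfa was at 0.14 with limma without a filter and ranged from -0.9995 to 0.40 without 1 library, Areg from -0.67 to 0.14, Erbb2 from -0.72 to 0.32 and Btc from -0.13 to 3.66.

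With a replicate block on mouse number, the difference of effects had 8 genes, no member called and Tgfa at 0.051, and 9 members differed between the cell types. Whether equal numbers mark 1 animal is not stated. After removal of group means, same-numbered libraries of the populations correlated at -0.03 to 0.11, and differently numbered ones of the same genotype at -0.08 to 0.04. These values do not settle the pairing, and the libraries were treated as unpaired. Macrophage counts of 0 to 18 for Egf, Btc and Tgfa limit any statement on genotype there.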
